A study of Mus musculus with 16 samples.

Results

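The miR-17-92 and miR-106b-25 clusters were followed through mouse dorsal skin. Members were the miRNAs whose name on the array equalled mmu-miR-17, mmu-miR-18a, mmu-miR-19a, mmu-miR-20a, mmu-miR-19b or mmu-miR-92a (the 6 mature miRNAs of miR-17-92) or mmu-miR-106b, mmu-miR-93 or mmu-miR-25 (the 3 of miR-106b-25), which gave 9 of the 577 miRNAs measured. Passenger strands, the hairpin arms marked with a star in their array names and usually the less abundant ones, were left out of the members. The array design named the 9 members without their arm, and all 9 names were matched to 1 mature sequence each.

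The study compared miRNA levels in skin of Ppard+/+ (WT) and Ppard-/- (KO) mice, to find miRNAs of the UV response that depend on the nuclear receptor PPARβ/δ, the product of Ppard. Per the labels and methods, all mice were hairless albino females of mixed SKH1-C57/Bl6-SV129 background. KO mice carried the Ppard-/- genotype in the whole animal. Irradiated mice received 70 mJ/cm2 of UVB 3 times a week for 12 weeks, and their skin was taken outside lesions. The other mice received none and were sham-manipulated, age-matched controls. The methods give an age of 8 to 12 weeks without a time point. As exposure alone lasted 12 weeks, the age when skin was taken is not stated. The 4 groups, called WT no UV, WT UV, KO no UV and KO UV, held 4 arrays each, each array carrying RNA of a differently numbered animal. Whole skin was used, so fewer cells of a type and less RNA per cell cannot be told apart. The array carried no Ppard probe, so the deletion itself was not checked here.

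A polycistron is 1 primary transcript that is cut into several miRNA hairpins. Both clusters are polycistrons known as transcriptional targets of proliferation factors, miR-17-92 of MYC and E2F proteins and miR-106b-25 of E2F1 together with its host gene Mcm7, a subunit of the replicative helicase. Their miRNAs are known to repress cell cycle inhibitors and pro-apoptotic genes: the miR-17 seed family targets Cdkn1a and the miR-92 seed family targets Bcl2l11. A miRNA chooses its targets mainly through its seed, bases 2 to 8 from its 5′ end, so members of different clusters that share a seed are expected to share targets.

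The mature sequences are shown to let the 4 seed groups be read directly, with the seed in capitals (RefSeq, build GRCm38.p6, 5′ to 3′). The first 4 carry the miR-17 seed, followed by the miR-18 seed, the pair with the miR-19 seed and the pair with the miR-92 seed.
mmu-miR-17: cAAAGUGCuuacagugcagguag
mmu-miR-20a: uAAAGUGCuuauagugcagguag
mmu-miR-106b: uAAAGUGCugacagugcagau
mmu-miR-93: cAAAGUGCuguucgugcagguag
mmu-miR-18a: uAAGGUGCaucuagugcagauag
mmu-miR-19a: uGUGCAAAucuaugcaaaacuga
mmu-miR-19b: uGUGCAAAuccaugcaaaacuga
mmu-miR-92a: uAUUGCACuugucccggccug
mmu-miR-25: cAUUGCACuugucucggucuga

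The X chromosome holds a paralogous cluster, miR-106a-363, whose miR-106a and miR-20b share the miR-17 seed and are shown because hybridisation may not separate them from the members.
mmu-miR-106a: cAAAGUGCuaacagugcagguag
mmu-miR-20b: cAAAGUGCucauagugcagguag

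With bases counted from 1 at the 5′ end, miR-17 and miR-106a differed at 1 of 23 bases (U10A), and so did miR-19a and miR-19b (U11C). miR-17 and miR-20a differed at 2 bases (C1U and C12U), as did miR-20a and miR-20b (U1C and U10C). miR-92a and miR-25 differed at 3 of the 21 bases they share in position. Signals of such near-identical miRNAs are therefore uncertain, since a probe for one may also bind the other.

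The hairpins of miR-17-92 lie on the plus strand at chr14:115043671-115044506, a span of 836 bases, in the order miR-17, miR-18a, miR-19a, miR-20a, miR-19b and miR-92a (GRCm38.p6). The annotated start of the host lncRNA Mir17hg lies within this span, so that only the miR-92a hairpin falls wholly inside the annotated gene and the miR-19b hairpin partly. The miR-106b-25 hairpins lie on the minus strand at chr5:138165321-138165818, 498 bases in the order miR-106b, miR-93 and miR-25, all inside Mcm7. Mature miR-19b and miR-92a are also encoded on the X chromosome beside the paralogous cluster (Mir19b-2 and Mir92-2), so their array signals join both loci.

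Each member was measured by 2 probes of 10 spots each, and all 9 were detected on all 16 arrays. Signal is given as the quantile-normalized total gene signal in signal units, and differences are on its log2 scale, where 1 is a 2-fold change. The lowest value of any member, 24.7 units, lay above the floor of 19.4 units at which dim values were set. Total signal per array before normalization ran from 170979 to 395200 units, and 184 to 266 miRNAs were detected per array. All 8 irradiated arrays lay on slide 1 and all 8 others on slide 2. Irradiation therefore cannot be told apart from slide and scan in any UV difference below, whereas KO and WT were always compared within 1 slide. The local background was 119 to 130 units on slide 1 and 63.3 to 65.8 units on slide 2. On slide 1 the WT arrays were all in row 1 and the KO arrays all in row 2, so that genotype and row cannot be told apart after UV.

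In the main fit, the cluster members with the largest differences after irradiation were miR-18a and miR-19a in WT and KO skin alike. They stand side by side in miR-17-92, and both were dim, with group means from 49.2 to 137 units. How far they led depended on the signal used. Under normexp background correction the miR-19a differences were 0.39 in WT and 0.37 in KO. In KO skin, 5 of the 9 members rose after UV (limma, Benjamini-Hochberg adjusted p under 0.05 over 228 tested miRNAs): miR-18a 2.29-fold, miR-20a 1.40-fold, miR-92a 1.34-fold, miR-25 1.27-fold and miR-106b 1.23-fold. The background in this comparison was 29.8% of tested miRNAs called, or 18.4% called higher. Of the 228 tested, 167 were detected on all 16 arrays, as all 9 members were. Some tested miRNAs, such as miR-28* and miR-214*, had a UV difference of 0 in both genotypes and could not be called. Such miRNAs lower the background shares given here and below. No member was called lower. The 5 rises are in normalized signal. Before normalization, total signal was 254694 to 395200 units on KO no UV arrays and 200905 to 231139 on KO UV arrays. The unnormalized KO groups overlapped for all 5 members. Without and after UV they ran from 481 to 921 and 506 to 597 units for miR-106b, and from 417 to 628 and 350 to 465 for miR-25. For miR-18a they ran from 31.8 to 99.1 and 75.3 to 92.7 units. In WT skin none of the 9 passed, against 16.2% of tested miRNAs, although 4 members (miR-18a, miR-19a, miR-20a and miR-106b) had an unadjusted p under 0.05. The UV difference itself did not pass a test of WT against KO for any member, so the 2 genotypes are not shown to respond differently. The KO count was 3 to 6 with 1 array left out, 3 under a 75th percentile scaling (miRNAs detected on all arrays) or with slide row as a covariate, and 1 (miR-92a) when the KO arrays were fitted alone, where miR-18a and miR-20a each had a limma adjusted p of 0.0528. The sizes depended on the signal and its normalization: over the 9 alternatives other than leaving out an array, the KO difference ran from 0.39 to 1.20 for miR-18a, 0.37 to 0.60 for miR-20a, 0.36 to 0.60 for miR-92a, 0.17 to 0.35 for miR-25 and 0.16 to 0.31 for miR-106b (log2).

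**Figure D1:**
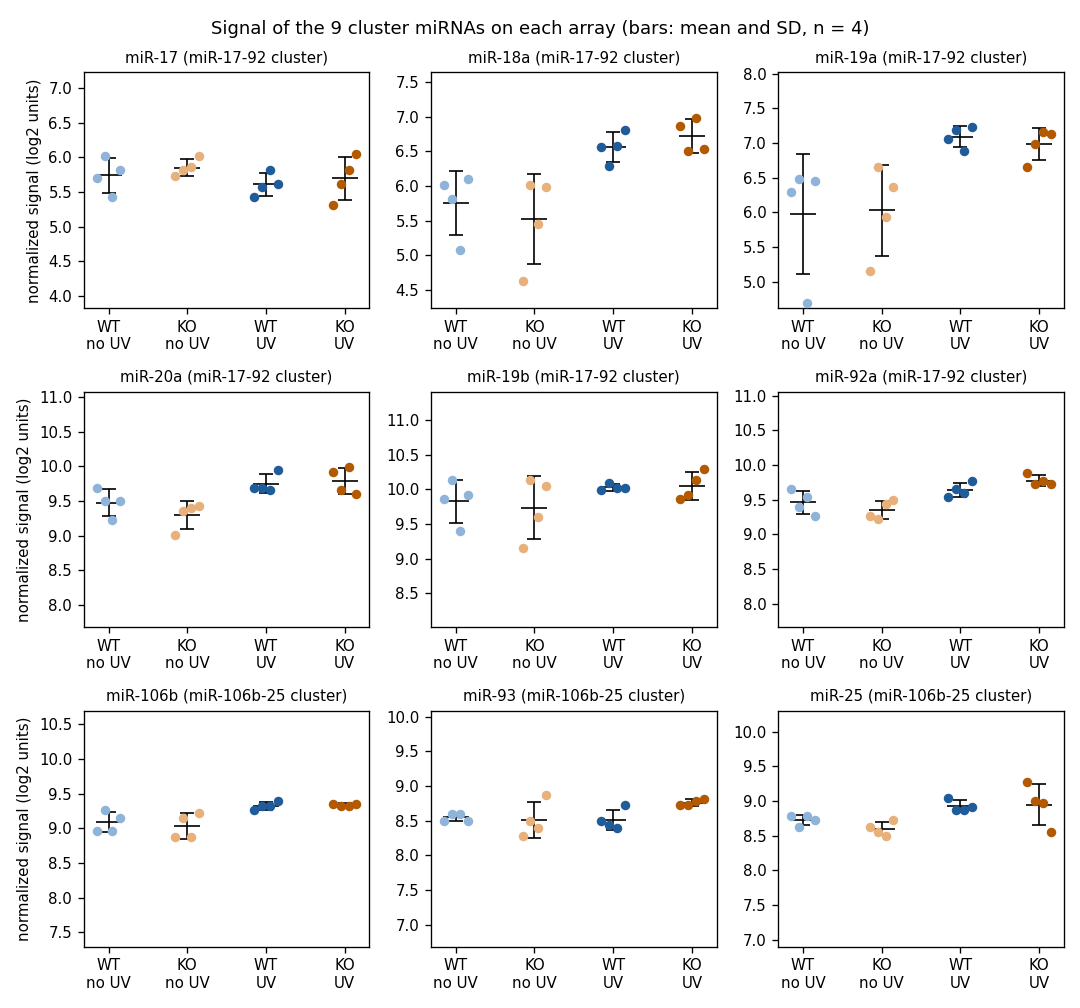
Normalized log2 signal (y axis, log2 signal units) of each of the 9 members on every array, in 1 panel per member with the 4 groups on the x axis. Points are arrays, black marks the mean and SD (n = 4). All panels span the same log2 range around their own mean. miR-18a and miR-19a show the largest mean differences between irradiated and non-irradiated arrays, although the KO groups of miR-19a share a value.

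miR-18a, which carries a seed of its own in the cluster, measured 64.9, 56.2, 33.9 and 68.3 units on the 4 WT no UV arrays and 94.1, 78.1, 95.6 and 112 units on the WT UV arrays. In KO skin it measured 24.7, 64.9, 43.9 and 63.4 units without UV and 116, 90.3, 127 and 92.2 units after UV. The irradiated arrays were above every non-irradiated one in both genotypes. The difference was 0.81 in WT (SE 0.30, limma adjusted p = 0.0738, n = 4 per group) and 1.20 in KO (SE 0.30, limma adjusted p = 0.013).

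miR-19a, one of the pair with the miR-19 seed, measured 78.1, 88.9, 25.7 and 87.5 units in WT no UV skin and 133, 145, 118 and 150 units in WT UV skin. KO arrays read 35.6, 101, 61.3 and 82.2 units without UV and 101, 127, 142 and 140 units after UV. The WT groups did not overlap, while in KO the lowest irradiated array had the same value as the highest non-irradiated one. The difference of 1.12 in WT (SE 0.38) had a limma adjusted p of 0.0606, and that of 0.95 in KO (SE 0.38) one of 0.0756, so neither passed. Under normexp background correction, whose offset of 50 units shrinks differences of dim miRNAs by construction, the differences were 0.39 and 0.37 and both passed (limma adjusted p = 0.0183 and 0.02), and in the authors' table they were 0.99 and 0.84 and also passed (limma adjusted p = 0.0237 and 0.0366). Its near-copy miR-19b ran from 672 to 1126 units in WT no UV, 1012 to 1089 in WT UV, 571 to 1126 in KO no UV and 924 to 1254 in KO UV. Those groups overlapped, and the differences were 0.20 in WT and 0.31 in KO (limma adjusted p = 0.535 and 0.265).

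The low arrays in both cases were the same. WT no UV replicate 3 and KO no UV replicate 1 had the lowest total signal of their groups (170979 and 254694 units) and the lowest values of miR-18a, miR-19a, miR-20a and miR-19b in their groups. With both left out, an alternative chosen after seeing the data, the miR-18a difference in WT fell to 0.58 and that of miR-19a to 0.69 in WT and 0.66 in KO. In WT 2 members (miR-18a and miR-19a) then passed, with limma adjusted p of 0.0376 and 0.0149. In KO miR-19a then passed (adjusted p = 0.017) and miR-25 no longer did (adjusted p = 0.0746), which left the count at 5. Over the 8 fits with 1 array of the KO groups left out, the miR-18a difference in KO ran from 0.90 to 1.36 and was called in each.

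miR-20a, a miR-17 seed miRNA, measured 826, 721, 597 and 721 units in WT no UV skin and 826, 826, 804 and 989 units in WT UV skin. KO arrays read 514, 656, 672 and 689 units without UV and 965, 804, 1012 and 776 units after UV. The KO groups did not overlap, and the WT groups shared a value. It rose by 0.49 in KO (SE 0.12, limma adjusted p = 0.0141), and the WT difference was 0.27 (SE 0.12, limma adjusted p = 0.15).

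miR-17, which shares that seed and lies first in the same transcript, measured 52.0, 64.9, 43.0 and 56.2 units in WT no UV and 43.0, 47.8, 56.2 and 49.2 units in WT UV skin. In KO it read 52.8, 56.2, 57.9 and 64.9 units without UV and 39.6, 49.2, 56.2 and 66.2 units after UV. It was the single member below 0 in both UV comparisons, at −0.13 in WT and −0.16 in KO (limma adjusted p = 0.598 and 0.462). Its groups overlapped throughout.

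miR-92a, the last miRNA of the transcript, measured 804, 672, 743 and 616 units in WT no UV and 743, 804, 776 and 872 units in WT UV skin. KO arrays read 616, 597, 689 and 721 units without UV and 945, 846, 872 and 846 units after UV, with a gap between the groups. It had the smallest adjusted p of the members in KO (0.42, SE 0.085, limma adjusted p = 0.00498), and its WT difference of 0.18 (SE 0.085) did not pass (limma adjusted p = 0.17).

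In the miR-106b-25 cluster, miR-106b measured 500, 616, 500 and 571 units in WT no UV and 616, 638, 638 and 672 units in WT UV skin. In KO it read 470, 571, 470 and 597 units without UV and 656, 638, 638 and 656 units after UV. The irradiated KO arrays were above all others of that genotype, and in WT the groups met at 1 value. It rose by 0.30 in KO (SE 0.084, limma adjusted p = 0.0203), with a WT difference of 0.23 (SE 0.084, limma adjusted p = 0.0691). The KO call was lost without KO no UV replicate 1 or replicate 3 (0.25 in both, adjusted p = 0.0541 and 0.064), and a WT call was gained without WT no UV replicate 2 (0.29, adjusted p = 0.0297).

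miR-25, which shares the miR-92 seed, ran from 395 to 440 units in WT no UV and from 470 to 530 units in WT UV skin, with no overlap. In KO it read 395, 375, 363 and 422 units without UV and 616, 514, 500 and 375 units after UV, where the last array lay within the non-irradiated range. It rose by 0.35 in KO (SE 0.11, limma adjusted p = 0.0386), and the WT difference of 0.20 did not pass (SE 0.11, limma adjusted p = 0.246). Of 8 fits with a single array of these groups removed, 6 gave no call for miR-25 in KO (adjusted p up to 0.0996).

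miR-93, the remaining miRNA with the miR-17 seed, ran from 363 to 388 units in WT no UV, 336 to 422 in WT UV, 311 to 470 in KO no UV and 422 to 452 in KO UV skin. It overlapped between groups in each genotype. Its UV differences were −0.04 in WT and 0.25 in KO (limma adjusted p = 0.857 and 0.093). Without KO no UV replicate 4, its highest non-irradiated array, the KO difference was 0.37 and passed (limma adjusted p = 0.00544).

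Counted by separation, 3 members did not overlap between the WT groups, all higher after UV (miR-18a, miR-19a and miR-25), where 13.6% of all tested miRNAs separated in that direction. In KO 4 members separated upward (miR-18a, miR-20a, miR-92a and miR-106b), against 11.8%.

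**Figure D2:**
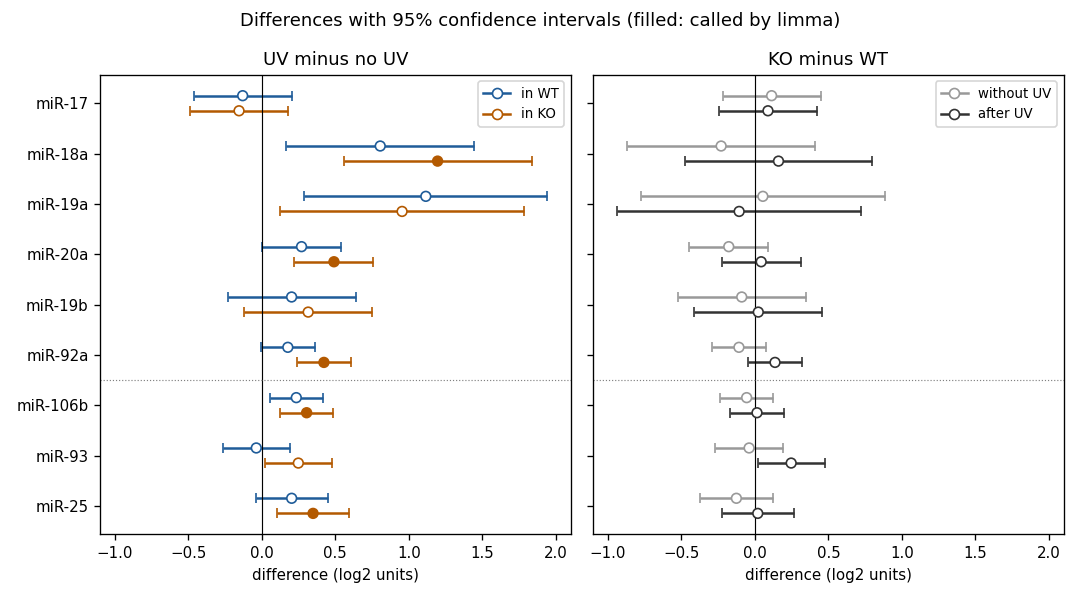
Difference of each member (x axis, log2 units) with its 95% confidence interval from the limma fit, UV minus no UV on the left (WT and KO) and KO minus WT on the right (without and after UV). Filled points were called, which holds for 5 members in KO after UV and for none in the other comparisons drawn, and the dotted line parts miR-17-92 from miR-106b-25.

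The 2 clusters were compared next. In KO 3 of 6 miR-17-92 members and 2 of 3 miR-106b-25 members were called higher, beside 18.4% of all tested miRNAs. Their median differences were 0.46 and 0.30, while the median over all tested miRNAs was 0. Quantile normalization gives all arrays the same distribution, which by itself keeps that overall median near 0. With so few members, these counts do not tell the clusters apart. In WT the medians were 0.24 and 0.20. Differences inside miR-17-92 ran from −0.13 to 1.12 in WT and from −0.16 to 1.20 in KO, and inside miR-106b-25 from −0.04 to 0.23 and from 0.25 to 0.35.

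**Figure D3:**
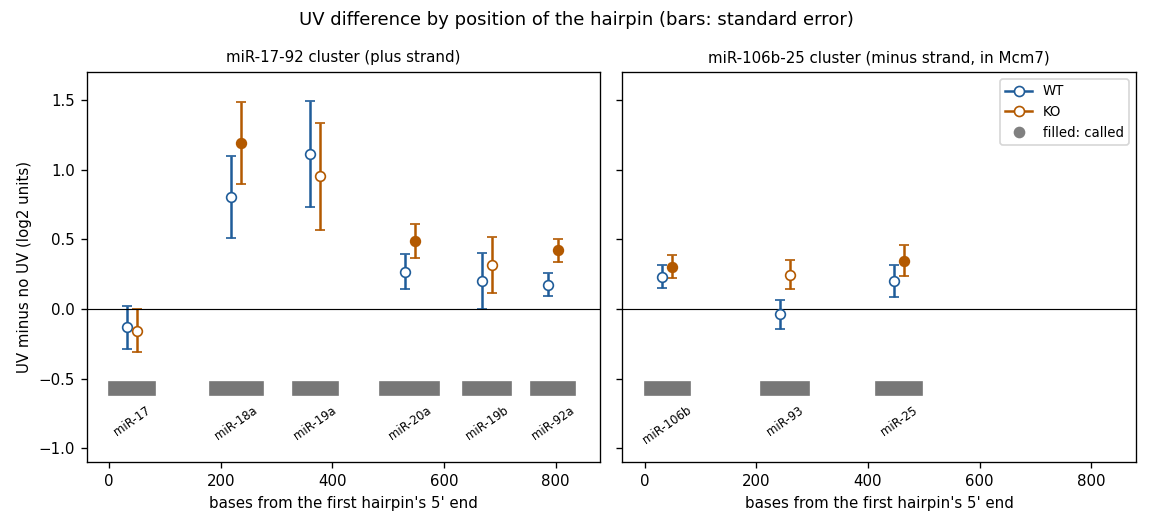
UV difference of each member (y axis, log2 units, bars are standard errors, filled points called) against the position of its hairpin (grey boxes) in bases from the 5′ end of the first hairpin (x axis). In miR-17-92 the differences do not follow hairpin order, with miR-17 below 0 and its neighbours miR-18a and miR-19a highest.

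The mean of a cluster on each array, after centring each member on its own mean over 16 arrays, gave a compact view. For miR-17-92 it was −0.20 ± 0.32 in WT no UV and 0.21 ± 0.084 in WT UV skin, and −0.27 ± 0.34 in KO no UV and 0.26 ± 0.12 in KO UV skin (log2, SD, n = 4). Every irradiated array (0.14 to 0.40) was above every non-irradiated one (−0.75 to −0.01). The array of lowest total signal in each non-irradiated group stood apart here, at −0.68 and −0.75, whereas the next lowest array was at −0.29. For miR-106b-25 the means were −0.071 ± 0.034, 0.062 ± 0.067, −0.15 ± 0.16 and 0.15 ± 0.084 in the same order, and there the same arrays lay at −0.08 and −0.27, inside the range of their groups. These means summarise the same values and were not tested.

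**Figure D4:**
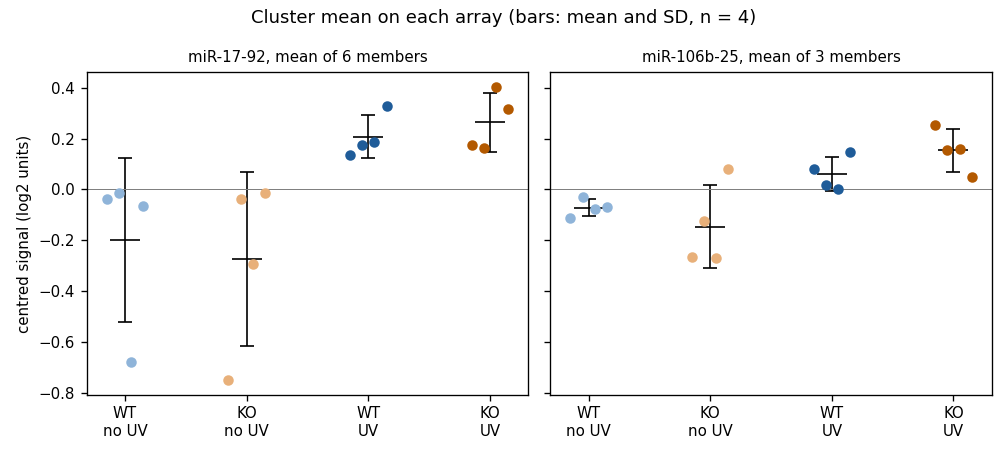
Mean centred log2 signal of the 6 miR-17-92 members (left) and the 3 miR-106b-25 members (right) on each array, with group mean and SD (n = 4). In miR-17-92 no irradiated array falls below a non-irradiated one, and 1 WT and 1 KO array without UV lie near −0.7, while in miR-106b-25 a KO array without UV lies above some irradiated arrays.

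Members sharing a seed were set against each other by the log2 ratio within each array, for all 8 such pairs, and the UV change of that ratio, averaged over both genotypes, was tested with irradiation permuted within genotype (exact, two-sided, 4900 permutations, Benjamini-Hochberg over the 8 pairs). The ratio cancels what an array does to both miRNAs alike, but not a slide effect that differs between their probes. Of the pairs within a transcript, miR-20a moved up relative to miR-17 by 0.52 (exact p = 0.00204, adjusted 0.00544), by 0.40 in WT and 0.65 in KO. miR-19a moved up relative to miR-19b by 0.78 (exact p = 0.000408, the smallest these permutations can give, adjusted 0.00327), by 0.91 in WT and 0.64 in KO. miR-106b against miR-93 changed by 0.16 (exact p = 0.0261, adjusted 0.0418), of which 0.27 was seen in WT and 0.056 in KO. Averaged over both genotypes, the ratios of these 3 pairs thus changed beyond the spread between arrays. For miR-106b against miR-93 this does not hold in KO taken by itself (exact p = 0.571, and 0.0286 in WT). The 2 miR-93 probes also differed in sign, with UV differences of −0.34 and 0.01 in WT and −0.04 and 0.29 in KO. Across the clusters, miR-106b moved up relative to miR-17 by 0.41 (exact p = 0.00163, adjusted 0.00544) and miR-20a relative to miR-93 by 0.28 (exact p = 0.0098, adjusted 0.0196). The passing pairs with miR-17 rest on a dim miRNA, with group means from 49.0 to 58.0 units, on slides of unequal local background. Its 2 probes gave KO UV differences of −0.36 and 0.005. The 3 other pairs did not pass: miR-93 against miR-17 changed by 0.25 (exact p = 0.0608, adjusted 0.0811), miR-20a against miR-106b by 0.11 (exact p = 0.236, adjusted 0.269) and miR-92a against miR-25 by 0.024 (exact p = 0.789, adjusted 0.789). With normexp in place of the total gene signal, chosen for this test after seeing the data, the same 5 pairs passed, but the changes of miR-19a against miR-19b and of miR-20a against miR-17 were 0.19 and 0.34.

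By seed group in KO, the miR-17 seed had 2 of 4 members called higher (median 0.28) and the miR-18 seed 1 of 1. The miR-19 seed had 0 of 2 (median 0.63) and the miR-92 seed 2 of 2 (median 0.39). Beside these stood 18.4% of all tested miRNAs called higher, and groups this small do not tell the seeds apart. The miR-19 pair thus held no call at a median above that of the miR-17 and miR-92 seeds, and the SD of miR-19a over arrays without UV was 0.86 in WT and 0.65 in KO.

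**Figure D5:**
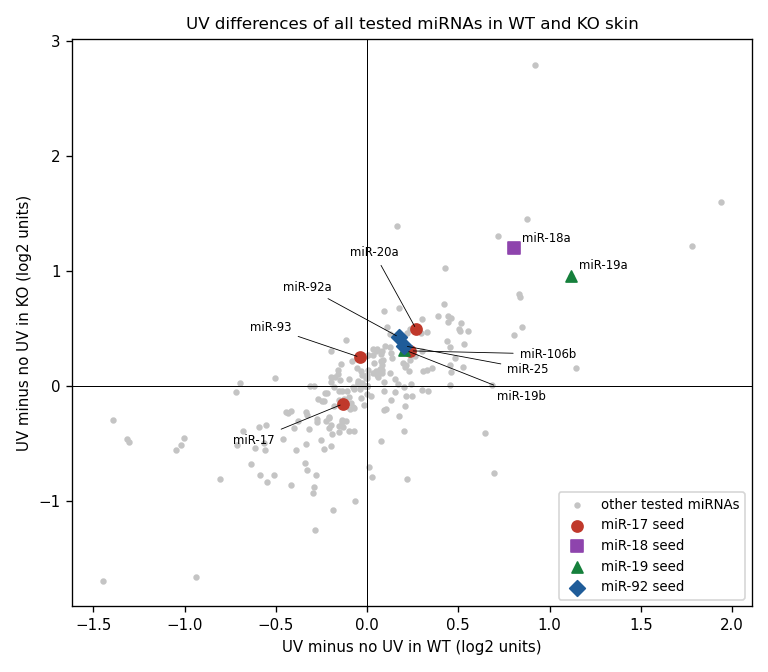
UV difference in WT (x axis) against that in KO (y axis), both in log2 units, for all 228 tested miRNAs (grey) and the 9 members, marked by seed. miR-18a and miR-19a lie toward the upper right, miR-17 lies below 0 on both axes, and the other members lie among the grey points slightly above 0 in KO.

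Genotype made no difference that passed the test. Without UV, 0 of 9 members were called in KO against WT (limma), in a comparison where 0% of all tested miRNAs were called, and none had an unadjusted p under 0.05. The differences ran from −0.23 (miR-18a, 95% confidence interval −0.87 to 0.41) to 0.11 (miR-17, −0.22 to 0.45), with 7 of 9 below 0 and a median of −0.09. After UV, again 0 of 9 were called, against 2.19% of all tested miRNAs, and 8 of 9 differences were above 0 with a median of 0.04. miR-93, which reads 336 to 422 units in WT and 422 to 452 units in KO, was the single member with an unadjusted p under 0.05 (0.25, 95% confidence interval 0.017 to 0.48, limma adjusted p = 0.529). The intervals were narrow for miR-106b (−0.17 to 0.20 after UV) and wide for miR-19a (−0.94 to 0.72), an interval that holds 1.5-fold differences in either direction.

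The interaction, WT UV difference minus KO UV difference, was called (limma) for 0 of 9 members, against 2.19% of all tested miRNAs, and no member had an unadjusted p under 0.05. It was negative for 7 of 9, with a median of −0.15, and the smallest p values belonged to miR-92a (−0.25, limma adjusted p = 0.441) and miR-93 (−0.29, limma adjusted p = 0.498). Without KO no UV replicate 4 the miR-93 value became −0.41 with an adjusted p of 0.0458, the one fit of this comparison in which a member passed.

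The 2 probes of each member were also read apart. For miR-18a they gave UV differences of 1.27 and 1.15 in KO, for miR-106b 0.30 and 0.31, and for miR-20a 0.53 and 0.46. For miR-92a the KO difference was 0.18 with one probe and 0.49 with the other, and for miR-25 it was 0.16 and 0.40. Their sign differed for miR-17 (−0.36 and 0.01) and miR-93 (−0.04 and 0.29) in KO, and for miR-92a (−0.0002 and 0.23) and miR-93 (−0.34 and 0.01) in WT.

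Relatives outside the clusters were followed in the same fit. miR-20b, of the X-linked paralogous cluster, ran from 243 to 348 units in WT no UV, 375 to 440 in WT UV, 231 to 348 in KO no UV and 440 to 470 in KO UV skin. It rose by 0.60 in KO (limma adjusted p = 0.00633), and the WT difference was 0.39 (limma adjusted p = 0.0536). Whether the 2 bases that part it from miR-20a keep their signals separate was not tested. miR-106a, 1 base from miR-17, gave −0.09 in WT and −0.20 in KO (limma adjusted p = 0.702 and 0.344), values close to those of miR-17. miR-18b and miR-363, the other paralogs, were detected on 0 of 16 arrays, as was miR-32, and miR-92b on 2 WT and 1 KO arrays without UV. Of the 7 passenger strands on the array only miR-17* was tested, with UV differences of 0.21 in WT and 0.16 in KO (limma adjusted p = 0.104 and 0.173).

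The miRNAs whose array-by-array pattern was nearest to the miR-17-92 mean over 16 arrays were miR-20b, miR-872 and miR-218, with root mean square differences of 0.083, 0.15 and 0.15 log2 units (median over the other tested miRNAs 0.38). Nearest to the miR-106b-25 mean were miR-345-5p, miR-16 and let-7f, at 0.099, 0.10 and 0.12 (median 0.27). Between members, the median root mean square difference was 0.41 for the 15 pairs within miR-17-92, 0.18 for the 3 pairs within miR-106b-25 and 0.26 for the 18 pairs across clusters, beside 0.40 for all pairs of tested miRNAs. The median within miR-17-92 was thus close to that over all pairs, but it joins close and distant pairs. They ran from 0.15 (miR-20a and miR-92a) to 0.72 (miR-17 and miR-19a). miR-20a and miR-19b stood at 0.24, and miR-19b and miR-92a at 0.29. The measure grows with the size of a change, and over all pairs it went down to 0. It therefore does not show whether the members vary together.

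Since MYC is known to activate miR-17-92 and to repress a set of other miRNAs, 17 such miRNAs were listed. In KO 2 were called higher and 5 lower after UV, beside 18.4% and 11.4% of all tested miRNAs, with a median of −0.07, and the 3 with the smallest p were miR-30c (−0.34), miR-30b (−0.78) and miR-150 (−0.56), with limma adjusted p of 0.0142, 0.0168 and 0.0169. In WT 1 was called higher and 3 lower, beside 9.21% and 7.02% of all tested miRNAs, with a median of −0.05, led by miR-150 (−1.05, limma adjusted p = 0.000329), miR-15a (0.30, limma adjusted p = 0.027) and miR-29c (−0.46, limma adjusted p = 0.0335). miR-150 is also a lymphocyte miRNA. None was called in KO against WT with or without UV.

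Markers of the cell types in whole skin were read in the same UV comparisons. There 9.21% of all tested miRNAs were called higher and 7.02% lower in WT, and 18.4% and 11.4% in KO. Of 7 keratinocyte miRNAs (miR-203, miR-205 and the miR-200 family) 4 were called higher in WT and 6 in KO, with medians of 0.44 and 0.39, and their summed signal ran from 21539 to 25477 units in WT no UV, 26081 to 31708 in WT UV, 22225 to 27764 in KO no UV and 29320 to 43027 in KO UV skin. Of 4 skeletal muscle miRNAs (miR-1, miR-133a, miR-133b and miR-206) all 4 were called lower in KO and none in WT, and their sum ran from 40655 to 50330 units in KO no UV, 19464 to 24489 in KO UV, 20453 to 41168 in WT no UV and 21899 to 25985 in WT UV skin. Of 5 leukocyte miRNAs 1 was called lower in WT, and 1 higher and 1 lower in KO, with summed signals of 3175 to 4532 and 2990 to 3588 units in WT skin without and after UV, and 2325 to 3607 and 2406 to 3111 units in KO skin. Of 3 erythrocyte miRNAs 2 were tested, with 1 lower in KO, and of 4 fibroblast and vessel miRNAs on the array 1 was higher and 1 lower in WT and 1 higher and 2 lower in KO. The part of cell composition in the rise of the cluster members was not tested.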

How the data were processed

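Per the labels, 100 ng of total RNA per animal was labelled with Cy3 and hybridised to 1 single-colour Agilent mouse miRNA array, and the submitters' processing notes name Agilent Feature Extraction 9.5.3.1. The deposited scanner files hold background-subtracted intensity values, summed over the spots of each miRNA (total gene signal) and not normalized between arrays. The deposited series table holds log2 values normalized by the authors and served as an alternative only. Array design and detection calls were read from the file headers and columns.

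Total gene signals were quantile normalized over 16 arrays (limma 3.58.1, R 4.3.3), floored at 19.4 units (each array's 5th percentile among detected miRNAs, median of 16) and log2 transformed. Quantiles give out values by rank, so equal values recur between arrays. The 228 miRNAs detected throughout 1 or more groups were fitted in 1 group-means model (lmFit, eBayes, 12 residual and 0.802 prior degrees of freedom) with 5 contrasts, and calls used a Benjamini-Hochberg adjusted p under 0.05 over all 228. Seed pairs were tested by exact permutation. The code was tested on simulated data.

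Groups and replicate numbers came from sample titles. The labels give different animal numbers, and p-values measure the spread between these arrays. Members, lists, pairs and tests were chosen with earlier results of these data known. All members were named in every comparison, and at most 3 called miRNAs of the MYC list, by smallest p. Alternatives changed the normalization, signal, floor, filter, replicate block, slide row and arrays in the fit. Irradiation was confounded with slide, and the number of arrays limits precision. RefSeq tables (GRCm38.p6) gave sequences and positions.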

Additional observations from a re-analysis of the deposited data

Results flagged for a closer look

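In the 36 groups of 4 arrays (9 members in 4 groups), Dixon's test for the array farthest from the others marked 3, where chance marks about 1 in 20. miR-19a in WT no UV replicate 3 had a ratio of gap to range of 0.896 (log2 signal 4.69 against 6.29 on the nearest array). miR-20a in KO no UV replicate 1 had a ratio of 0.831 (9.01 against 9.36). Both arrays had the lowest total signal of their group. miR-20a in WT UV replicate 4 had a ratio of 0.872 (9.95 against 9.69), and this array had the highest total signal of its group.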

How the results depend on the processing

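The count of members called in KO after UV was 5, and it was 3 with each array scaled to the 75th percentile of miRNAs detected on all arrays, 3 with slide row as a covariate and 1 (miR-92a) with only the groups compared in the fit, which has fewer arrays for the spread. It was 4 under the 75th percentile of all miRNAs (miR-25 lost, adjusted p = 0.111), 6 with normexp (miR-19a gained) and 5 in the authors' table (miR-19a in place of miR-25, adjusted p = 0.0569). It ran from 3 to 6 with 1 array left out, with 3 when replicate 1 or replicate 3 of KO no UV was left out, where miR-106b and miR-25 were lost. miR-92a was called in all 17 of these fits and the rise of every called member kept its sign in all of them. In WT after UV the count was 0, and it was 1 under the 75th percentile of all miRNAs (miR-106b), 2 in the authors' table (miR-18a and miR-19a), 2 with normexp (miR-19a and miR-106b), 1 with a floor of 1 unit (miR-19a), 1 with no detection filter (miR-19a), 1 with the replicate block (miR-106b, adjusted p = 0.035) and 2 without the array of lowest total signal in each non-irradiated group. The fit with no detection filter held the 233 miRNAs whose floored signal varied between arrays. It ran from 0 to 1 with 1 array left out (1 without WT no UV replicate 2, miR-106b). For the UV effect in WT minus KO it ran from 0 to 1. KO against WT gave 0 members in every fit. Replicate numbers were not taken to pair the arrays. Correlations of deviations had a median of 0.16 over 24 same-number pairs (−0.35 to 0.38). Over 72 different-number pairs the median was −0.053, in a wider range (−0.62 to 0.75). The replicate block changed no other count. The causes were not tested.

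Sign changes touched uncalled differences only. In KO minus WT without UV they were miR-106b 0.013 and miR-93 0.049 (75th percentile, detected miRNAs), miR-19a −0.0041, miR-106b 0.0042 and miR-93 0.040 (75th percentile, all), miR-106b 0.031 (normexp), and miR-19a −0.085 and miR-93 0.054 without the 2 arrays. After UV they were miR-106b −0.0067 (75th percentile, all), miR-19b −0.0040 and miR-106b −0.027 (normexp), and miR-19a 0.18 and miR-25 −0.017 (slide row). In UV minus none in WT they were miR-93 0.068 (75th percentile, all) and 0.023 (slide row). In the UV effect in WT minus KO they were miR-17 −0.035 (75th percentile, detected), miR-17 −0.011 and miR-106b 0.011 (75th percentile, all), miR-106b 0.059 (normexp), miR-17 −0.012 and miR-19a −0.12 (slide row), and miR-17 −0.037 without the 2 arrays. With 1 array left out, KO minus WT without UV ranged from −0.12 to 0.0027 for miR-106b, −0.45 to 0.069 for miR-18a, −0.38 to 0.34 for miR-19a, −0.23 to 0.10 for miR-19b and −0.16 to 0.038 for miR-93. After UV it ranged from −0.0050 to 0.037 for miR-106b, −0.029 to 0.22 for miR-17, −0.059 to 0.088 for miR-19b, −0.023 to 0.11 for miR-20a and −0.088 to 0.15 for miR-25. UV minus none in WT ranged from −0.11 to 0.0031 for miR-93, and the UV effect in WT minus KO from −0.11 to 0.14 for miR-17, −0.27 to 0.45 for miR-19a and −0.26 to 0.080 for miR-19b.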
